A study of Mus musculus with 48 samples.

Results

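The nuclear-encoded subunits of the electron transport chain were followed in mouse bone and in MLO-Y4 cells. They were taken as the gene rows named Nduf followed by a, b, c, s or v and a digit, Sdha to Sdhd, Uqcr, or Cox4 to Cox8, pseudogene symbols excluded. The rule itself reads names and no measured value. It gave 67 genes of 55335 rows: 37 of complex I, 4 of complex II, 8 of complex III and 18 of complex IV.

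The electron transport chain sits in the inner mitochondrial membrane. Complex I takes electrons from NADH and complex II from succinate, complex III passes them from ubiquinol to cytochrome c, and complex IV hands them to oxygen. Complexes I, III and IV pump protons, and ATP synthase uses the gradient to make ATP. Oligomycin A blocks the proton channel of ATP synthase, so it acts downstream of the chain. A few core subunits of complexes I, III and IV come from mitochondrial DNA, and the genes described here encode most of the rest and the whole of complex II. Complex I also holds supernumerary subunits that take no direct part in electron transfer, and complex IV has alternative isoforms in muscle, lung or testis.

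RNA sequencing of RNA selected with oligo(dT) beads gave FPKM values, which scale fragments by transcript length and library size, for 27 libraries in 9 groups of 3. All groups were labelled wild type, C57BL/6J. Cortical bone came from the femur and tibia of 18-month-old mice, and its protocol says that nonosseous tissue and marrow were taken along. Fragments of long and parietal bone of 1-month-old mice were cultured for 48 h, and the groups were titled medium transfer and control; donor medium had been conditioned for 24 h by young or old bone, and the labels do not say which medium each group received. MLO-Y4 is an immortalised osteocyte-like mouse line, made from bone cells of a mouse with a viral T antigen driven by the osteocalcin promoter. MLO-Y4 cells received ADP at 2 µM for 2 h or no ADP. In another experiment they received oligomycin A at 50 µM or DMSO vehicle for 1 h, and untreated MLO-Y4 cells were then exposed for 2 h to the supernatant of either culture. The treatment label of vehicle cells names oligomycin A beside DMSO at 50 mM, a stock concentration in the protocol; titles and protocol were followed. No label tells if the 3 libraries of a group had separate sources, and the p-values cover only the spread between these libraries, which may be technical.

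Depth, inferred roughly from the steps between low values, was 15100000 to 25400000 fragments in MLO-Y4 libraries, 29800000 to 34200000 in 18-month bone and 1620000 to 6400000 in 1-month bone, where it is least certain. Several libraries stood apart. In vehicle replicate 2, rRNA-like and 7S rows made up 22.9% of all FPKM, against 0.174% to 0.337% in the other 5 libraries of vehicle and oligomycin A cells. In 5 of the 6 libraries of 1-month bone, satellite-like rows took 66.1% to 89.9% of the sum, and in medium transfer replicate 2 they took 5.80%. The label osteocyte was checked against 9 markers: in MLO-Y4 cells with vehicle, 3 of them (Col1a1, Pdpn and Phex) reached a mean of 1 FPKM, and Sost and Dmp1 were listed at 0. In 18-month bone, the summed level of 4 erythroid markers was 203138 to 214956 FPKM and that of 5 neutrophil markers 66307 to 71076 FPKM, against at most 2.03 and 5.36 FPKM in vehicle cells. In bulk samples, fewer cells of a type and less RNA per cell cannot be told apart.

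Promoters are shown for 1 member of each complex: Ndufb8, the one subunit that passed a test, and Sdhd, Uqcrh and Cox6a1, whose windows hold a motif. They are the 250 bases before the RefSeq gene start (build GRCm38.p6), printed 5′ to 3′ on the gene's strand, with matches to 2 motifs, on either strand, in capitals. These are the ETS core CCGGAAG, which nuclear respiratory factor 2 (GABP) can bind, and GCGCATGCG, from the site of nuclear respiratory factor 1. Both factors are known regulators of respiratory genes. Ndufb8 lies on the minus strand at chr19:44555443-44555692, Sdhd on the minus strand at chr9:50603850-50604099, Uqcrh on the minus strand at chr4:116075071-116075320 and Cox6a1 on the minus strand at chr5:115348959-115349208.
Ndufb8: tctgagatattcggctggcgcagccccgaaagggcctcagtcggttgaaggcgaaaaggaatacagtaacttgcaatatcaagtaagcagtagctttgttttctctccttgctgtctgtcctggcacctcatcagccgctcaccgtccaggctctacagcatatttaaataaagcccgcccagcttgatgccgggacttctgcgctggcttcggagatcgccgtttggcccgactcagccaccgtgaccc
Sdhd: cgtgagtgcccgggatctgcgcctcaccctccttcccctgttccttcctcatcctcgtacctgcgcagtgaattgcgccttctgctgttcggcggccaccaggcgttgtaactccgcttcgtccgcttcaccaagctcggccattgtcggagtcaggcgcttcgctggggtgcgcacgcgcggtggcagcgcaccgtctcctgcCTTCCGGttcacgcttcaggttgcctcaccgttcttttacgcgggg
Uqcrh: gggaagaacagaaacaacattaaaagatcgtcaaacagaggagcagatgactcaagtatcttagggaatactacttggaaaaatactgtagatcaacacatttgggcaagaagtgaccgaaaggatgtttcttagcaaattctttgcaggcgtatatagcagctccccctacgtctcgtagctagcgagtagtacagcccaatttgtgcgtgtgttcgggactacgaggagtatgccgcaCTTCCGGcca
Cox6a1: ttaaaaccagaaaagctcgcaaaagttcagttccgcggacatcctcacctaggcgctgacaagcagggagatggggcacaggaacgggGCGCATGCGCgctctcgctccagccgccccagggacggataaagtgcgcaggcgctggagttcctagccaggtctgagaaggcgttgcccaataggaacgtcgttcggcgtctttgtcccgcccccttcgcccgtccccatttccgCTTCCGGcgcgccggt
The ETS letters, read as CTTCCGG on the printed strand, began 46 bases before the start of Sdhd, 10 before Uqcrh and 16 before Cox6a1, and the window of Cox6a1 also held the nuclear respiratory factor 1 letters on both strands, overlapping each other, 162 bases before the start. The Ndufb8 window held neither, which says only that these letters are not in it.

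RefSeq windows (250 bases before to 50 after the start) were found for 53 of the 67 subunits, as 55 windows. On either strand, the ETS core was in 11 of the 55 windows and in 8.86% of 32851 windows of all genes. The nuclear respiratory factor 1 letters were in 5 (9.09%) and in 1.75% of all: Ndufa8, Ndufa11, Uqcr11, Uqcrc1 and Cox6a1. A YY1 motif, AAGATGGCG, was in 5 (9.09%) and in 1.40% of all. By complex, the ETS core was in 4 of 34 windows of complex I, 2 of 3 of complex II, 2 of 5 of complex III and 3 of 13 of complex IV. All 5 YY1 matches were in complex I windows (Ndufa9, Ndufc1, Ndufs4, Ndufs6 and Ndufs7). These matches are a description and not evidence of binding.

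In every group most subunits were well expressed. In vehicle cells 60 of the 67 had a mean of at least 1 FPKM, with a median of 22.8 FPKM, and in 18-month bone 64 did, with a median of 66.9 FPKM. Cox6a1, the ubiquitous form of a small complex IV subunit, was the highest in all 9 groups, at 257 FPKM in vehicle cells and 929 FPKM in 18-month bone. In 18-month bone it was 883, 940 and 965 FPKM, well above the next, Cox8a at 440, 436 and 503 FPKM and Cox4i1 at 452, 417 and 386 FPKM. The last pair overlapped. In the medium transfer group Cox6a1 was 181, 523 and 186 FPKM.

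Within complex I, Ndufa2 was highest in vehicle cells, control and 18-month bone, at 60.7, 117 and 364 FPKM. Ndufs1, the largest core subunit and a carrier of iron-sulfur clusters, was lowest in bone, at 1.73 FPKM in control bone and 3.69 FPKM in 18-month bone. In vehicle cells Ndufb2 was the lowest of the 36 complex I genes above 1 FPKM, at 1.96 FPKM; its exons overlap other genes on both strands, so its level is uncertain. Of complex II, Sdhd, a membrane anchor, was highest in these groups, and Sdha, the flavoprotein that oxidises succinate, was 37.1 ± 0.115 FPKM in vehicle cells (SD, n = 3) and 16.3 FPKM in 18-month bone. Of complex III, Uqcr10 was highest, at 77.6 FPKM in vehicle cells and 396 FPKM in 18-month bone.

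**Figure D1:**
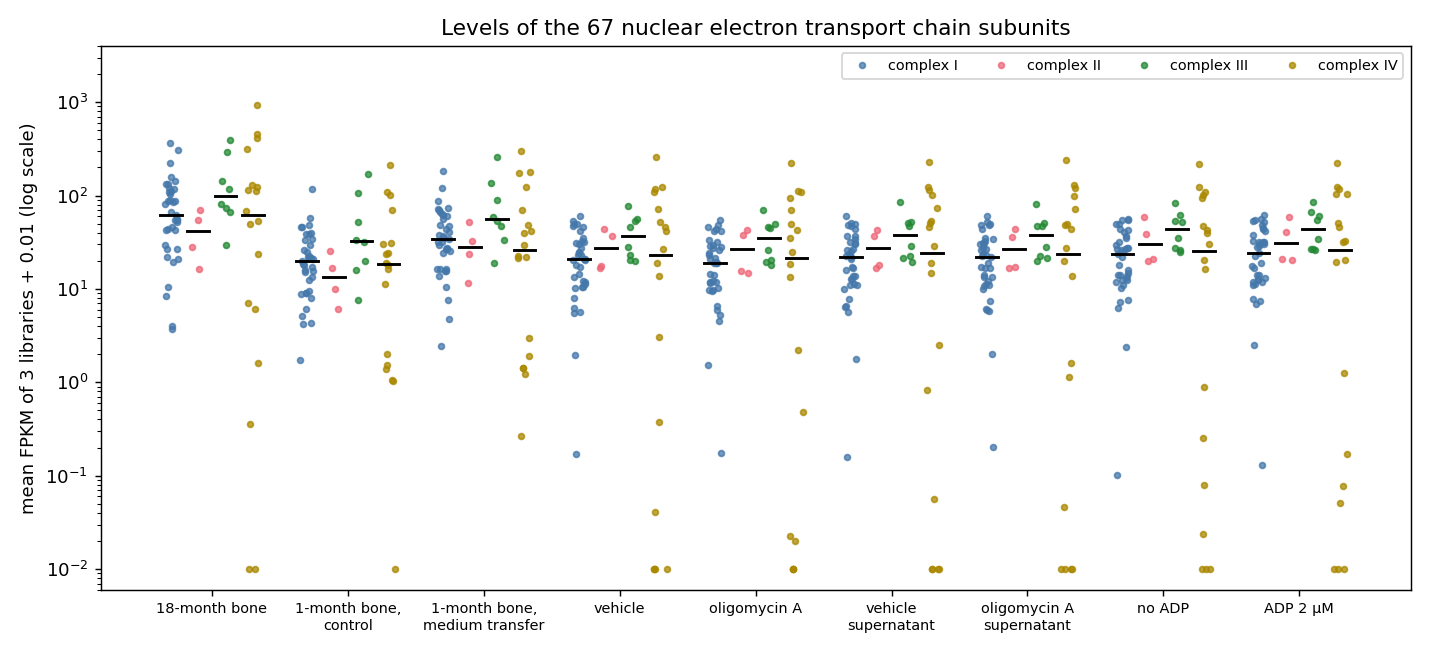
Each point is 1 subunit, placed by its mean FPKM over 3 libraries plus 0.01 on a log axis, with colours for complexes I to IV and black bars for medians. Complex III has the highest median in each group, and the lowest points in cells are complex IV isoforms and Ndufa4l2; tables of bone and cells were normalized separately.

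The split of transcript between complexes was described within each library. Complex I held 39.7% ± 0.876 of the subunits' summed FPKM in vehicle cells, complex II 5.26% ± 0.269, complex III 14.8% ± 0.125 and complex IV 40.2% ± 1.03 (SD, n = 3). In cells without ADP they were 40.5% ± 0.156, 6.11% ± 0.0793, 16.04% ± 0.1 and 37.4% ± 0.279, and the ranges of complexes II, III and IV did not overlap those of vehicle cells. In 18-month bone the shares were 43.0% ± 0.559, 2.30% ± 0.232, 16.4% ± 0.433 and 38.3% ± 0.238 in the same order. In control bone of 1-month mice complex II held 2.86% ± 0.345 (SD, n = 3). Complex II thus took a smaller share in these bone groups, and their ranges did not overlap those of vehicle cells: 2.06% to 2.52% and 2.59% to 3.25% against 5.01% to 5.54%. The share is taken within a library, but the groups come from different tables, so no test was made.

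Over the 59 subunits with at least 1 FPKM in cells without ADP, the ratio of 18-month bone to those cells had a median of 2.86, from 0.417 for Sdha to 8.55 for Ndufb7, and 3 subunits were lower in bone. Over all rows above 1 FPKM in both, the median ratio was 0.551. The FPKM of a library summed to 816890 to 839628 in 18-month bone and 274215 to 277077 in cells without ADP. As a share of that sum the subunits held 0.882% ± 0.028 in 18-month bone and 0.820% ± 0.0197 in those cells (SD, n = 3). The order of levels was shared in part: across the 67 genes, which are not independent replicates, Spearman's rho was 0.98 between vehicle cells and cells without ADP and 0.80 between 18-month bone and vehicle cells. Tables were normalized separately and the bone held marrow cells, so these ratios are a description.

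Of the alternative isoforms, Ndufa4l2, Cox4i2 and Cox6b2 were higher in every bone library than in any MLO-Y4 library. Ndufa4l2, a paralog of Ndufa4 known as hypoxia-inducible, was 29.1, 26.4 and 82.5 FPKM in control bone of 1-month mice and 68.1, 120 and 24.2 FPKM after medium transfer. In 18-month bone it was 5.40, 5.17 and 1.54 FPKM, and in 18 MLO-Y4 libraries at most 0.39 FPKM. Its exons overlap Shmt2 on the opposite strand. The 1-month libraries were thus all above the 18-month ones. The 1-month bone was cultured for 48 h, while for 18-month bone no culture is given and marrow was taken along. The values were also normalized separately. Age and these differences cannot be told apart, here or in the isoforms below. As a share of Ndufa4 and Ndufa4l2 together, Ndufa4l2 was 65.2% ± 7.91 in control bone and 3.89% ± 2.28 in 18-month bone (SD, n = 3).

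Cox4i2, the form of subunit 4 known from lung and from hypoxic cells, was 21.1, 12.6 and 21.02 FPKM in control bone, 19.8, 33.3 and 11.8 FPKM after medium transfer and 2.47, 14.0 and 1.58 FPKM in 18-month bone. Libraries of 18-month and 1-month bone overlapped, through 1 library of the former. In MLO-Y4 libraries it was listed at 0 or at no more than 0.18 FPKM. Cox6b2, known as a testis form, was 25.4, 20.8 and 25 FPKM in 18-month bone, 0.99 to 2.87 FPKM in control bone and 0.77 to 3.54 FPKM after medium transfer. It was 7.10% ± 0.947 of the Cox6b pair in 18-month bone (SD, n = 3).

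Muscle forms were low. Cox6a2 was 8.94, 7.14 and 5.03 FPKM in 18-month bone and 0.758% ± 0.242 of the Cox6a pair (SD, n = 3); its exons overlap Itgad on the opposite strand. Cox7a1 was 1.08 to 2.08 FPKM in 18-month bone and 2.25 to 3.51 FPKM in vehicle cells. Cox8b was at most 0.77 FPKM in any library. The summed level of 10 skeletal muscle markers was 19.3 to 36.3 FPKM in 18-month bone and 5.21 to 15.9 FPKM in control bone, and its part in these isoforms was not tested. None of the 18 MLO-Y4 libraries had a value above 0 for Cox8b, Cox8c or Cox7b2.

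**Figure D2:**
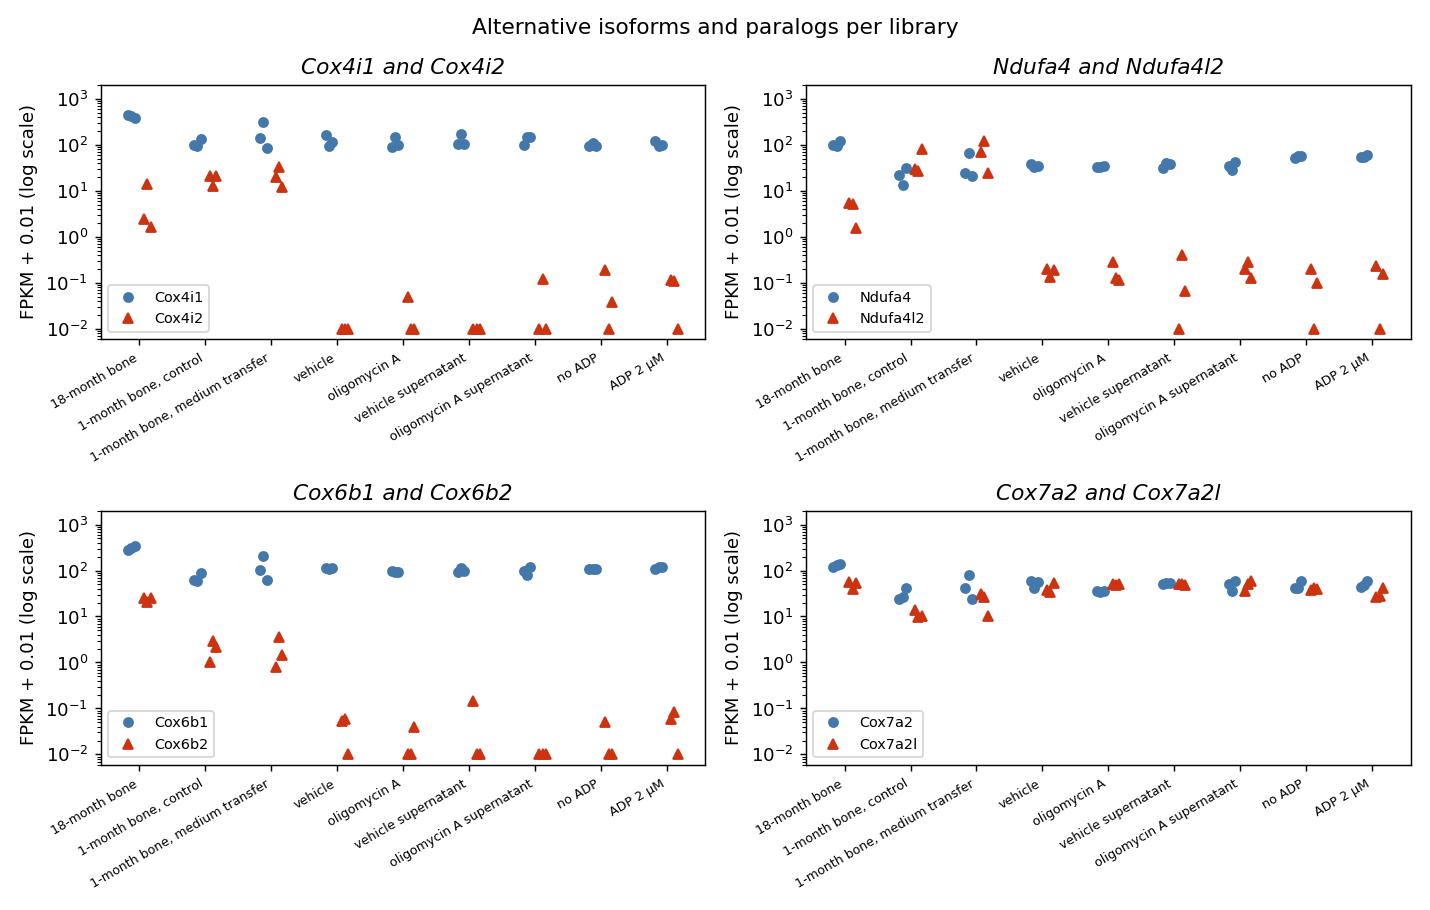
FPKM plus 0.01 on a log axis in every library, with the ubiquitous member as circles and its isoform or paralog as triangles, in 9 groups. Cox4i2, Ndufa4l2 and Cox6b2 lie near the floor of the plot in cells and well above it in bone, while Cox7a2l lies near Cox7a2 in cells.

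Spread between replicates differed widely among the subunits, which sets how small a change each could show. Over the 6 MLO-Y4 groups, the median coefficient of variation was 1.49% for Sdha and 24.3% for Cox4i1, and the median of 60 genes was 7.20%. Cox4i1, the main form of subunit 4, was 162, 96.1 and 113 FPKM with vehicle and 104, 167 and 102 FPKM with vehicle supernatant. Its exons overlap Emc8 on the opposite strand, and the use of strand in counting is not stated for these values. Cox7a2 and Cox7a2l were also variable, at 17.1% and 15.5%. Near-identical copies in pseudogenes (at least 95% over 200 bases or more) were found for 12 of the 67, Cox7a2l and Ndufb11 among them. Their values are thus uncertain. Copies of any kind were found for 18 of the 67, and exons of 22 overlapped those of another gene. Ndufa13 and Uqcrc2 had both and Ndufs1 had an overlap, so the same caution holds for them.

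Oligomycin A was compared with vehicle. Ndufb8, a supernumerary subunit of the complex I membrane arm, fell; no other subunit passed the test, although 57 of 60 had negative log2 fold changes. The median was -0.13, and it was -0.13 for complex I, -0.09 for complex II, -0.15 for complex III and -0.11 for complex IV, against 0.00 over all 11902 rows. The ranges of the complexes overlapped.

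Ndufb8 (ENSMUSG00000025204, GRCm38 chromosome 19, 44548572 to 44555440, minus strand, protein-coding) was 14.2, 14.5 and 14.6 FPKM with vehicle and 11.6, 11.7 and 11.96 FPKM with oligomycin A. All 3 treated libraries were below all 3 vehicle libraries. Its mean was 14.4 ± 0.215 FPKM with vehicle and 11.8 ± 0.184 FPKM with oligomycin A (SD, n = 3). The log2 fold change, on the log2(FPKM + 1) scale, was -0.27 ± 0.067 (SE; limma adjusted p = 0.0405). It was called in 7 of 16 alternative settings, with adjusted p from 0.0213 to 0.577 and a log2 fold change of -0.29 to -0.13. The call was lost when any 1 of the 6 libraries was left out. Its exons overlap the readthrough gene Gm20538 on the same strand.

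Over all rows, 5.34% were called, 1.63% lower and 3.71% higher, so 1 of 60 called lower (and 0 higher) is near the background. At an unadjusted p below 0.05, 14 of 60 subunits (23.3%) were lower and 0 higher, against 10.0% and 12.2% of all rows. For 18 of 60 subunits the treated libraries were all below the vehicle libraries, against 13.1% of all rows. For 1, Sdha, they were all above, against 16.8%. That was nearly a tie, with 37.155 FPKM in the highest vehicle and 37.1563 FPKM in the lowest treated library. Of all rows, 50.9% had negative fold changes, and of the 2975 rows with the shortest transcripts 69.1%. Of the 60 subunits, 45 were among these short rows.

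Within complex I, the Ndufb genes encode supernumerary subunits of the membrane arm. Their median was -0.23, with 10 of 10 negative. At an unadjusted p below 0.05 (limma), 7 of 10 were lower, against 10.0% of all rows. This share was the highest among the Ndufa, Ndufb, Ndufc, Ndufs and Ndufv genes, and the group is named as the extreme one. At that level, 28.6% of the 7 core and 31.03% of the 29 supernumerary subunits of complex I were lower. These shares were close, but other measures differed more. All treated libraries lay below all vehicle libraries for 14.3% of the core and 37.9% of the supernumerary subunits, against 13.1% of all rows. Negative fold changes made up 85.7% of the core and 100% of the supernumerary subunits, against 50.9% of all rows. The 13 Ndufa genes had a median of -0.11, with 13 of 13 negative. A test of the difference between these sets was not made. Ndufb10 was 49.0, 36.8 and 37.9 FPKM with vehicle and 35.4, 31.9 and 27.9 FPKM with oligomycin A (log2 fold change -0.36, limma adjusted p = 0.102). Ndufb11 was 54.9, 47.8 and 57.0 against 42.3, 43.1 and 44.5 FPKM (log2 fold change -0.29, limma adjusted p = 0.0890). Both had no overlap between groups. Ndufs1, the highest of complex I, was 5.56, 5.39 and 5.74 against 5.76, 6.26 and 5.73 FPKM, with a log2 fold change of 0.08.

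Complex IV held both extremes. Cox7a2, the widely expressed form of subunit 7a, was 58.7, 41.4 and 56.7 FPKM with vehicle and 35.4, 34.6 and 35.2 FPKM with oligomycin A. The treated libraries lay close together and below all vehicle libraries. The log2 fold change was -0.55 ± 0.16 (SE, limma adjusted p = 0.0778). Cox7a2l, its paralog, was 37.8, 34.7 and 54.1 against 51.4, 48.9 and 50.0 FPKM. It had the highest fold change, 0.27 ± 0.18 (SE, limma adjusted p = 0.417), and its groups overlapped. Cox7a2l was 44.5% ± 4.94 of the pair with vehicle and 58.8% ± 0.323 with oligomycin A (SD, n = 3 each), with 39.2% to 48.8% against 58.6% to 59.2%. With vehicle supernatant it was 48.6% ± 1.57 and with treated supernatant 49.7% ± 9.05 (SD, n = 3 each), from 40.6% to 58.7% in the latter, so 1 recipient library reached the range of the treated cells. The pair joins the lowest and the highest fold change of the oligomycin A comparison, neither of which passed. Its shares are thus no separate evidence and were not tested.

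In complex III all 8 subunits had negative fold changes, from -0.20 for Uqcr11 to -0.04 for Uqcrb. Uqcrc1, a core protein of complex III, was 24.7, 21.6 and 23.4 FPKM with vehicle and 21.1, 19.9 and 19.9 FPKM with oligomycin A (log2 fold change -0.19, limma adjusted p = 0.0968), with no overlap. In complex II, Sdhb, the iron-sulfur subunit, was 17.3, 16.3 and 17.1 against 14.3, 15.7 and 14.2 FPKM (-0.19, limma adjusted p = 0.124). Sdha was 37.2, 37.1 and 36.9 against 37.2, 37.5 and 38.4 FPKM (0.02). The flavoprotein thus had a fold change of only 0.02, with -0.19 for the iron-sulfur subunit of the same enzyme, and neither passed.

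**Figure D3:**
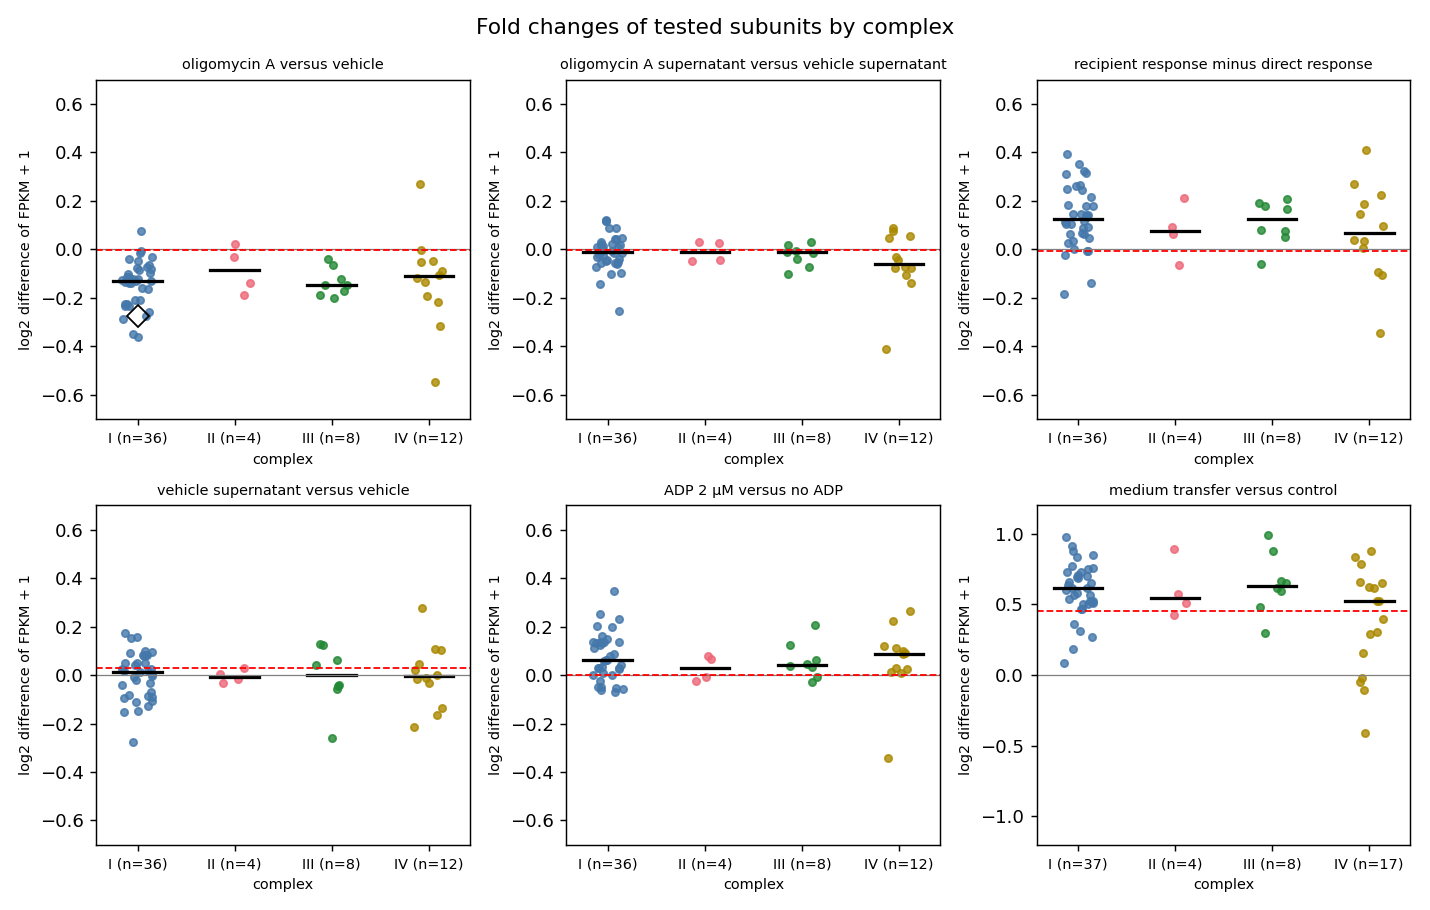
Each point is the log2 difference of FPKM + 1 of 1 tested subunit, grouped by complex, in 6 comparisons; black bars are medians, the dashed red line is the median of all tested rows, and a diamond marks an adjusted p below 0.05. Complex medians are below the dashed line with oligomycin A (-0.15 to -0.09) and Ndufb8 alone is marked; the last panel has a wider axis.

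The size of this shift moved with vehicle replicate 2 and with scaling. Without that library the median was -0.20, that of all rows -0.05, and 3 subunits were called lower, Cox7a2 (limma adjusted p = 0.0341), Ndufb11 (limma adjusted p = 0.0460) and Uqcrc1 (limma adjusted p = 0.0432), while Ndufb8 was not. With each library rescaled to one total the median became 0.02, that of all rows 0.12, and 0 were called. The share of the subunits in the FPKM left after rRNA-like, 7S and satellite-like rows was 0.851%, 0.739% and 0.805% with vehicle and 0.729%, 0.740% and 0.742% with oligomycin A, so that vehicle replicate 2 fell among the treated libraries.

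Fold changes also followed transcript length. Across 11898 rows, Spearman's rho between the log2 fold change and the longest annotated transcript was 0.31, and across the 60 subunits 0.14. The 2975 rows with the shortest transcripts (up to 1697 bases) had a median of -0.08 and the 2975 with the longest 0.06. Of the 60 subunits 45 were among the shortest, and their median was -0.13. The part of length in the result was not tested.

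**Figure D4:**
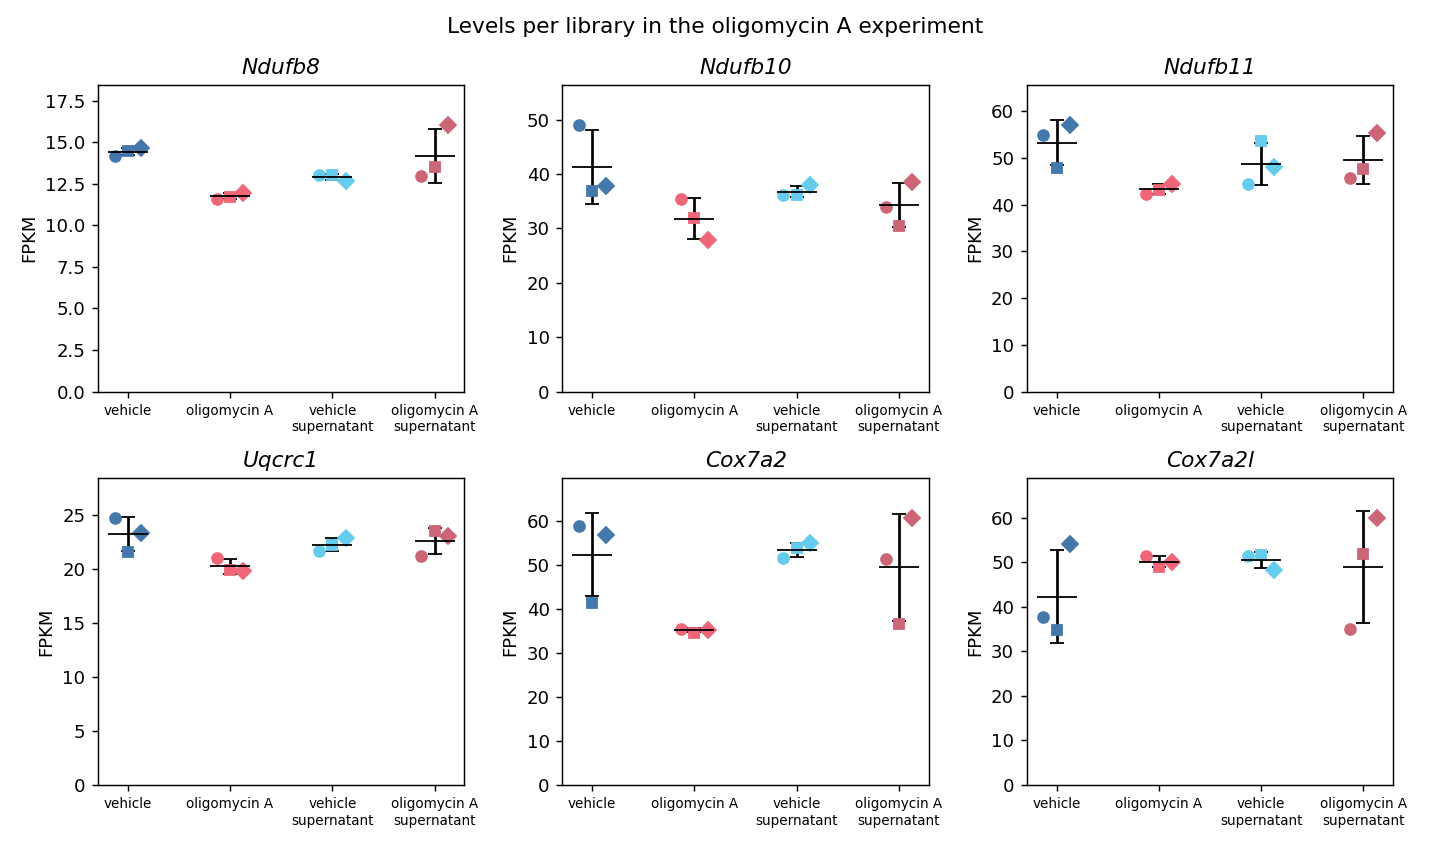
FPKM of 6 subunits in the 12 libraries of the oligomycin A experiment, with a symbol for each replicate number and bars for mean ± SD (n = 3). With oligomycin A, Ndufb8, Ndufb10, Ndufb11, Uqcrc1 and Cox7a2 lie below every vehicle library, and Cox7a2l (48.9 to 51.4 FPKM) lies within the vehicle range.

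Cells given supernatant of oligomycin A cultures were compared with cells given supernatant of vehicle cultures. No subunit passed: 0 of 60 were called, against 0.109% of all rows lower and 0.277% higher. At an unadjusted p below 0.05 (limma) 2 were lower and 0 higher, against 3.8% and 4.28% of rows. The median was -0.01, with 36 negative and 24 positive, and 51.7% of all rows were negative. No subunit had groups without overlap, against 6.49% of rows lower and 6.65% higher. Ndufs8, a core subunit with iron-sulfur clusters, was 18.9, 24.7 and 24.7 FPKM with vehicle supernatant and 18.6, 17.4 and 20.5 FPKM with treated supernatant (log2 fold change -0.25, limma adjusted p = 0.520). Cox7a1 was 1.72, 3.14 and 2.59 against 1.78, 1.35 and 1.63 FPKM (-0.41, limma adjusted p = 0.521). In complex II the range was -0.05 for Sdhc to 0.03 for Sdhd, and in complex III -0.10 for Uqcrb to 0.03 for Uqcrq. Leaving out single libraries moved the median between -0.10 and 0.05.

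Ndufb8 was 13.01, 13.04 and 12.7 FPKM with vehicle supernatant and 12.98, 13.5 and 16.05 FPKM with treated supernatant, the highest fold change of complex I here (0.12, limma adjusted p = 0.740). Cox7a2 was 51.6, 53.7 and 54.8 against 51.3, 36.4 and 60.5 FPKM. One recipient library was thus near the 34.6 to 35.4 FPKM of the treated cells and the others were not.

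The response of recipients minus that of treated cells was positive for 50 of 60 subunits, against 48.7% of all rows, with a median of 0.11 (complex I 0.13, II 0.08, III 0.12 and IV 0.07). None was called (0 of 60, against 0.361% of rows lower and 0.084% higher), and 6 had an unadjusted p below 0.05 (limma), all positive, against 4.82% of rows with a positive and 5.9% with a negative difference. Ndufb8 had the largest difference of complex I, 0.40 ± 0.095 (SE, limma adjusted p = 0.135), and Cox7a2 that of complex IV, 0.41 ± 0.23 (SE, limma adjusted p = 0.561). Cox7a2l was lowest, at -0.35. This difference uses the same vehicle and oligomycin A libraries as the comparison above, and recipients had 2 h and treated cells 1 h. Of the 2975 rows with the shortest transcripts, 39.0% had a negative difference, against 51.3% of all rows.

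Vehicle supernatant recipients and vehicle cells, which differ in time and medium and share the vehicle libraries with the first comparison, gave 0 of 60 called. Over all rows 5.18% were called lower and 9.49% higher, so 0 of 60 is below the background. The median was 0.00 (all rows 0.03), with 28 negative and 32 positive, against 43.5% of rows negative, and 1 had an unadjusted p below 0.05 (limma), Ndufb8. It was 14.2, 14.5 and 14.6 FPKM with vehicle and 13.01, 13.04 and 12.7 FPKM with vehicle supernatant, with no overlap (log2 fold change -0.15, limma adjusted p = 0.162). Ndufv3 was lowest of complex I at -0.28, Uqcrh, a hinge protein of complex III, lowest of its complex at -0.26, and Cox7a2l highest of complex IV at 0.28.

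ADP at 2 µM, a ligand of purinergic receptors, was compared with no ADP. No subunit passed (0 of 60; 0.0603% of all rows were called, 0.00862% lower and 0.0517% higher), and 47 of 60 had positive fold changes, against 49.1% of all rows. The median was 0.06, with 0.06 for complex I, 0.03 for complex II, 0.04 for complex III and 0.09 for complex IV. At an unadjusted p below 0.05, 12 of 60 were higher and 0 lower (limma), against 3.47% and 2.37% of rows. For 12 subunits all ADP libraries lay above all libraries without ADP, against 5.33% of rows, and for 1 they lay below, against 5.27%.

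Ndufa13, also known as GRIM-19, was 28.1, 26.2 and 27.3 FPKM without ADP and 31.2, 31.2 and 34.1 FPKM with it (log2 fold change 0.23 ± 0.046 SE, limma adjusted p = 0.584). Ndufa7 was 27.2, 26.0 and 28.7 against 30.5, 31.97 and 31.9 FPKM (0.20, limma adjusted p = 0.657). Ndufa3 was highest, at 14.9, 14.0 and 15.3 against 16.3, 19.6 and 21.3 FPKM (0.35, limma adjusted p = 0.830). These 3 had no overlap between groups, and the highest of complex III, Uqcrh (0.21), had none either. Cox7a2l was lowest, at 37.0, 41.9 and 39.6 FPKM without ADP and 26.2, 27.4 and 41.1 FPKM with it, an overlap through 1 library (log2 fold change -0.34, limma adjusted p = 0.842). Length moved with these values too: rho was -0.18 across 11600 rows and -0.33 across the 60 subunits. The 2900 rows with the shortest transcripts, 46 of the subunits among them, had a median of 0.03. Of these rows 39.6% had negative fold changes, against 50.9% of all rows. The part of length in the ADP result was not tested.

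In 1-month bone, medium transfer was compared with control, with 66 subunits tested. None passed (0 of 66; 0.0243% of rows were called, 0.0122% in each direction). At an unadjusted p below 0.05, 0 were higher or lower (limma), against 1.78% and 0.456% of rows. The fold changes were large and uncertain: the median was 0.60 and 62 of 66 were positive, but so were 85.1% of all 16438 rows, whose median was 0.45. Complex medians were 0.61, 0.54, 0.63 and 0.52 for I to IV. The smallest adjusted p was 0.900, and no subunit had groups without overlap, against 3.49% of rows higher and 0.596% lower.

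The summed FPKM of the 67 subunits was 2985, 5774 and 1650 after medium transfer and 1940, 1642 and 2626 in controls. Medium transfer replicate 2, the library with few satellite-like rows, was thus the highest by far, and replicate 3 was among the lowest. Uqcrc2, a core protein of complex III, was 15.0, 34.6 and 7.70 against 6.92, 7.26 and 8.56 FPKM (log2 fold change 0.99 ± 0.80 SE). Ndufb8 was 30.8, 70.5 and 12.5 against 13.9, 13.1 and 18.0 FPKM (0.98 ± 0.86 SE). Cox7a1 was lowest, at 4.21, 0 and 0 against 1.12, 0.48 and 2.91 FPKM (-0.41). In each case the range of the transfer libraries was wider than the difference between the group means.

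As a share of the FPKM left after satellite-like, rRNA-like and 7S rows, the subunits held 1.23%, 1.32% and 1.58% after medium transfer and 1.40%, 1.42% and 1.53% in controls, which overlap. With libraries rescaled without those rows the median was -0.05, and without medium transfer replicate 2 it was 0.13. Summed adipocyte markers (5 genes) were 11.5 to 95.9 FPKM after transfer and 3.75 to 5.40 FPKM in controls. Erythroid markers (4 genes) were 6055 to 12197 against 2258 to 4632 FPKM. The ranges of the other marker sets overlapped, osteoclasts among them (4 genes, 789 to 4904 against 682 to 856 FPKM). These marker sums were not rescaled for the share of satellite-like rows. Their part in the result was not tested.

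**Figure D5:**
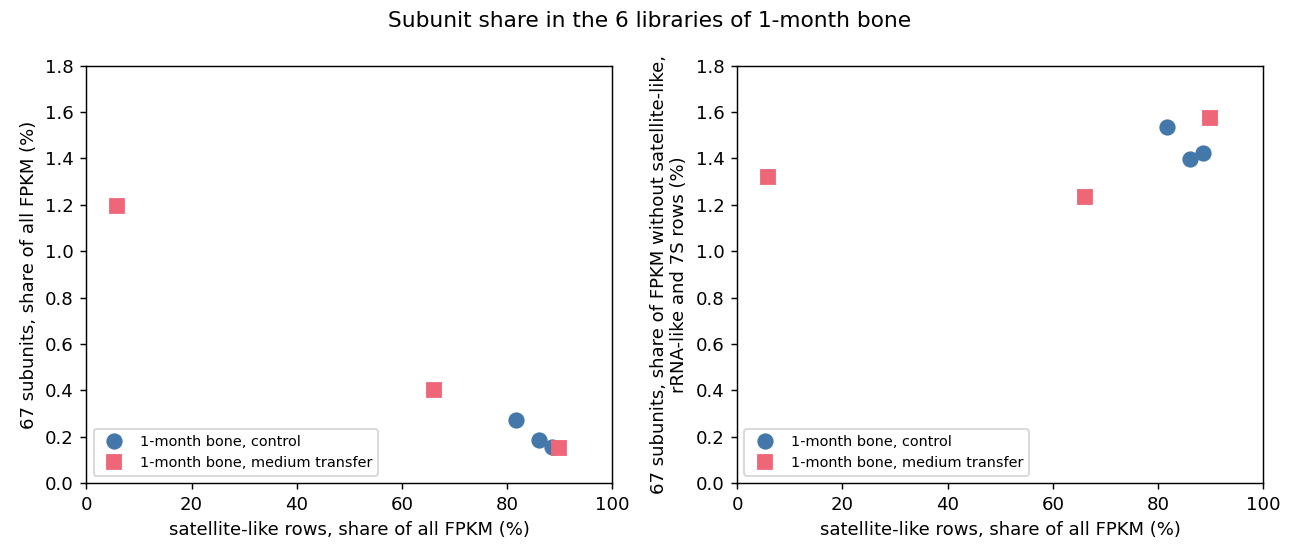
Share of the 67 subunits in each of the 6 libraries of 1-month bone, as a percentage of all FPKM (left) and of FPKM without satellite-like, rRNA-like and 7S rows (right), against the share of satellite-like rows. On the left the share drops from 1.196% to 0.150% as satellite-like rows take more of a library, and on the right all 6 libraries lie between 1.23% and 1.58%.

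Other genes of the pathway were taken as lists. The 11 mitochondrial DNA-encoded subunits of complexes I, III and IV all had negative fold changes with oligomycin A (median -0.16) and with treated supernatant (median -0.21). None of the 11 was called in either, and 8 were lower at an unadjusted p below 0.05 in each (limma), against 10.0% of all rows with oligomycin A and 3.8% with treated supernatant; nuclear subunits had medians of -0.13 and -0.01. The smallest adjusted p was that of mt-Nd2, a core subunit of complex I, at -0.25 (limma adjusted p = 0.0555) and -0.35 (limma adjusted p = 0.0587). With ADP the mitochondrial genes had a median of -0.03, and 8 of 11 were negative. Electron carriers and subunits outside the naming rule (6 genes, among them Cycs, cytochrome c, and Cyc1, cytochrome c1) had medians of -0.06 and 0.03 in the same comparisons, with 0 called and 0 at an unadjusted p below 0.05 (limma).

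Assembly factors, which build the complexes and are not part of them, had 0 called with oligomycin A, with treated supernatant, with ADP and with medium transfer: 15 tested for complex I, 3 for complex II, 5 for complex III and 23 for complex IV in cells. With oligomycin A their medians were -0.08, -0.01, -0.07 and -0.06, and 1, 0, 1 and 2 of them had an unadjusted p below 0.05 (limma), against 10.0% of all rows lower and 12.2% higher. Transcriptional regulators of respiratory genes (9 tested of 11 listed) had a median of 0.12 there, with 0 called and 3 at an unadjusted p below 0.05 (limma), 2 lower and 1 higher. Between vehicle supernatant and vehicle cells, 9.49% of all rows were called higher and 5.18% lower. There, 1 of 9 regulators, 1 of 23 complex IV and 1 of 15 complex I assembly factors were called higher and 1 of 6 carriers lower. Single calls in lists this small stay near that background and are no result about the lists. Tfam, which packages and transcribes mitochondrial DNA, was higher by 0.55 (limma adjusted p = 0.0063), Lrpprc, which stabilises mitochondrial mRNA, by 0.27 (limma adjusted p = 0.0191) and the complex I assembly factor Tmem186 by 0.70 (limma adjusted p = 0.00279). Etfdh, which feeds electrons from fatty acid oxidation to ubiquinone, was lower (log2 fold change -0.28, limma adjusted p = 0.0222).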

How the data were processed

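The authors deposited 4 tables of FPKM values, each with 55335 gene rows, for the 27 libraries used here; 21 of 48 samples were not analysed here. HTSeq and mm10 are listed in the submitters' processing notes, and which tool gave the FPKM is not stated there. Members and lists were chosen with earlier results of these data known. The test was limma (3.58.1, R 4.3.3, trended prior) on log2(FPKM + 1), for rows with a mean of at least 1 FPKM over the libraries of the fit, within a table, with Benjamini-Hochberg adjustment over all tested rows and a threshold of 0.05. The 4 oligomycin A groups shared 1 fit. Such fold changes understate those of low genes. Subunits were named when called, at the extremes of a complex in a comparison or group, as isoform families, or as examples of groups without overlap. Values recomputed as fragments were whole within 0.1 for 22.3% to 40.8% of low values, so counts were not recovered; equal values in a pair of libraries reached 0.021% at most. Fits were run on simulated data with independent genes and a change larger than those of the subunits in cells. That check does not cover small shifts, or shifts shared by many genes. Values of 1 subunit are not reported here by name. Positions are from GENCODE M21 (GRCm38, the assembly of mm10) and promoters from RefSeq GRCm38.p6. Same-numbered libraries had deviations correlated at -0.23 to 0.06, so numbers were not taken as pairs.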

Additional observations from a re-analysis of the deposited data

How the results depend on the processing

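In oligomycin A against vehicle, the count of subunits called lower was 1. It became 0 with no filter on low values, when rescaled to one total and with a replicate block, 5 with quantile normalization and 4 with size factors from medians of ratios, and it ran from 0 to 3 when single libraries were left out, with 3 without vehicle replicate 2 and 0 without each of the other 5. The replicate block changed no other count of called subunits. Same-numbered libraries had deviations correlated at -0.08 to 0.01 in this comparison, where 2 of 6 libraries correlated best with their own number. Between vehicle supernatant and vehicle these correlations were 0.002 to 0.06, and 4 of 6 libraries did so. With treated supernatant, ADP and medium transfer 0 of 6 did. The subunits' median moved from -0.13 to 0.017 when rescaled to one total and to -0.20 without vehicle replicate 2 (single libraries left out gave -0.20 to -0.087). Rescaling to one total also moved the median of the recipient response minus the direct response from 0.11 to -0.015 (all rows -0.12), and that of vehicle supernatant against vehicle from 0.00 to 0.13 (all rows 0.14). In the latter, quantile normalization called 2 lower, Ndufb8 among them. In medium transfer against control, the median was -0.05 with quantile normalization or when 7S, rRNA-like and satellite-like rows were left out of the total, and 0.13 to 1.04 with single libraries left out. In the other comparisons the count of called subunits stayed 0 under every alternative run. Moving Ndufa4 and Ndufa4l2, which belong to complex IV by current knowledge, left the complex IV median at -0.11 with oligomycin A and moved it from 0.07 to 0.04 for the recipient response minus the direct response.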
